A study of Schizosaccharomyces pombe with 30 samples.

Results

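Fission yeast, Schizosaccharomyces pombe, makes thiamine (vitamin B1) by joining a pyrimidine and a thiazole, and it can also take the vitamin up from the medium. The 6 genes described here serve synthesis, release, uptake and control, and were taken by systematic name. They are nmt1 (also thi3, SPCC1223.02), thi2 (SPBC26H8.01), thi4 (SPAC23H4.10c), pho4 (SPBC428.03c), thi9 (SPAC9.10) and thi1 (SPAC1486.10). Each had 1 exon feature, so the genes make up 6 of the 5069 exon features measured. The rule that chose them uses no measured value, but it was set with earlier results of these data known. None had an intron or junction feature, and the annotation gives each a single coding segment, so only transcript level could be read.

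As background, thiamine in the medium represses the genes of its synthesis and uptake and its absence turns them on, through the transcription factor Thi1 and its partner Thi5. The nmt1 promoter is widely used in fission yeast to express other genes under the control of thiamine. Cells use the vitamin as thiamine diphosphate, the cofactor of pyruvate decarboxylase, pyruvate dehydrogenase and transketolase. The cells of every group, wild type included, grew in YES5, a rich medium whose yeast extract brings thiamine with it. The ratios therefore compare strains in medium that contains the vitamin, and starved cells were not among the groups.

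The series holds 30 two-colour splicing arrays, 3 for each of 10 mutant groups, with mutant RNA in Cy5 and wild-type RNA in Cy3 on each. At 37 °C, where cultures were shifted for 2 hours, the groups were swr1∆ prp16DAmP, swr1∆ and prp16DAmP. At 16 °C, after 9 hours, they were pht1∆ prp16DAmP, pht1∆ and prp16DAmP, and at 30 °C, without a shift, pht1∆ usp107DAmP, usp107DAmP, swr1∆ and pht1∆. The wild-type RNA on an array carried the same temperature label as the mutant RNA. Wild type had no arrays of its own and dyes were not swapped, so a comparison with wild type is a test of the mean log ratio against 0, in which a dye bias would be included. Pht1 is the histone variant H2A.Z, and Swr1 is the ATPase that deposits it. Usp107 belongs to the U1 snRNP, and Prp16 is an ATPase that acts at the second splicing step. A DAmP allele disturbs the 3′ end of a gene to lower its mRNA.

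Values are log2 ratios of mutant over wild type. Each error after ± is the standard error from limma over all 30 arrays unless SD is written, n = 3 arrays a group, and a gene is called changed at a Benjamini-Hochberg adjusted p under 0.05 over all 5069 exon features. The labels do not say whether replicates came from separate cultures, so the p-values rest on the variation among arrays, which may be technical. The exon feature of pht1 was lower than in wild type in pht1∆ at 16 °C (−0.74 ± 0.10, adjusted p = 5.31e-06) and at 30 °C (−0.65 ± 0.10, adjusted p = 2.64e-05). It was −0.03 on the arrays labelled pht1∆ prp16DAmP and 0.02 on those labelled pht1∆ usp107DAmP, so it does not bear out the pht1∆ part of those labels. The features of swr1, usp107 and prp16 were not called in the groups labelled for them, with values from −0.19 to 0.28, while prp16 was lower on the arrays labelled pht1∆ usp107DAmP (−0.51, adjusted p = 0.0395). The SD of all exon features on an array averaged 0.142 to 0.200 in the 37 °C groups and 0.276 to 0.434 in the others.

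The stretches before the annotated transcript starts of nmt1, thi2, pho4 and thi9 are shown because they share a match to the TATA box sequence at nearly the same distance, while the ratios of these genes did not move together on the same arrays. Each line gives the last 120 bases before the start, 5′ to 3′ on the strand of the gene, from the RefSeq genome ASM294v3, with TATATAA on the strand of the gene in capitals. The stretches are chrIII:1838295-1838414 (plus strand) for nmt1, chrII:3940406-3940525 (plus) for thi2, chrII:447029-447148 (minus) for pho4 and chrI:1482299-1482418 (plus) for thi9.
nmt1: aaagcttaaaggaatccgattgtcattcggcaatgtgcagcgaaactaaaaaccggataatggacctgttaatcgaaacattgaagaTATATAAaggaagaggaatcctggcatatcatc
thi2: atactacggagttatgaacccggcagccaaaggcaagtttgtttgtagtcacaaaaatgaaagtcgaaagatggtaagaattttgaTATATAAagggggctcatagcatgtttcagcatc
pho4: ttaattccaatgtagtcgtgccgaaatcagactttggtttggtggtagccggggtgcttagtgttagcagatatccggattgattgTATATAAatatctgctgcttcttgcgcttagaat
thi9: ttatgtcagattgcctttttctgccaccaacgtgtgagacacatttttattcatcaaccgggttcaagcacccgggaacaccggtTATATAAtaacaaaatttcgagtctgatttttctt

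TATATAA was searched for on both strands in the 250 bases before each start. On the strand of the gene it began at −33 in nmt1, at −34 in pho4, at −35 in thi9, and at −34 and −200 in thi2. On the other strand it overlapped these matches in thi9 (−36) and in thi2 (−201). The windows of thi4 and thi1 held no match, which says only that these letters are not in those windows. Other forms of the TATA box were not searched for, and the last 120 bases before thi4 hold tataaaa. Of 4991 promoter windows of the same length in the genome, 808 (16.2%) held the motif on either strand, and 129 (2.58%) held it on the strand of the gene with its first base between −40 and −28, a range chosen after the positions in the 4 genes were seen.

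Against wild type, 8 of the 60 values (6 genes in 10 groups) were called, with folds from 0.644 to 1.28. On the arrays labelled pht1∆ usp107DAmP 4 of 6 genes were called, against 42.4% of all exon features, with nmt1 and thi2 higher, as were 18.0% of all features, and pho4 and thi1 lower, as were 24.4%. In pht1∆ at 30 °C 1 of 6 was called, against 25.7%: the thiamine transporter gene thi9, which was lower, as were 16.9%, and had the lowest mean ratio of the set. The acid phosphatase gene pho4 was the single gene called on the arrays labelled pht1∆ prp16DAmP (1 of 6, against 23.4%), in prp16DAmP at 16 °C (1 of 6, against 17.3%) and in usp107DAmP (1 of 6, against 20.5%), higher in both 16 °C groups, as were 6.98% and 5.43% of all features, and lower in usp107DAmP, as were 11.9%.

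**Figure D1:**
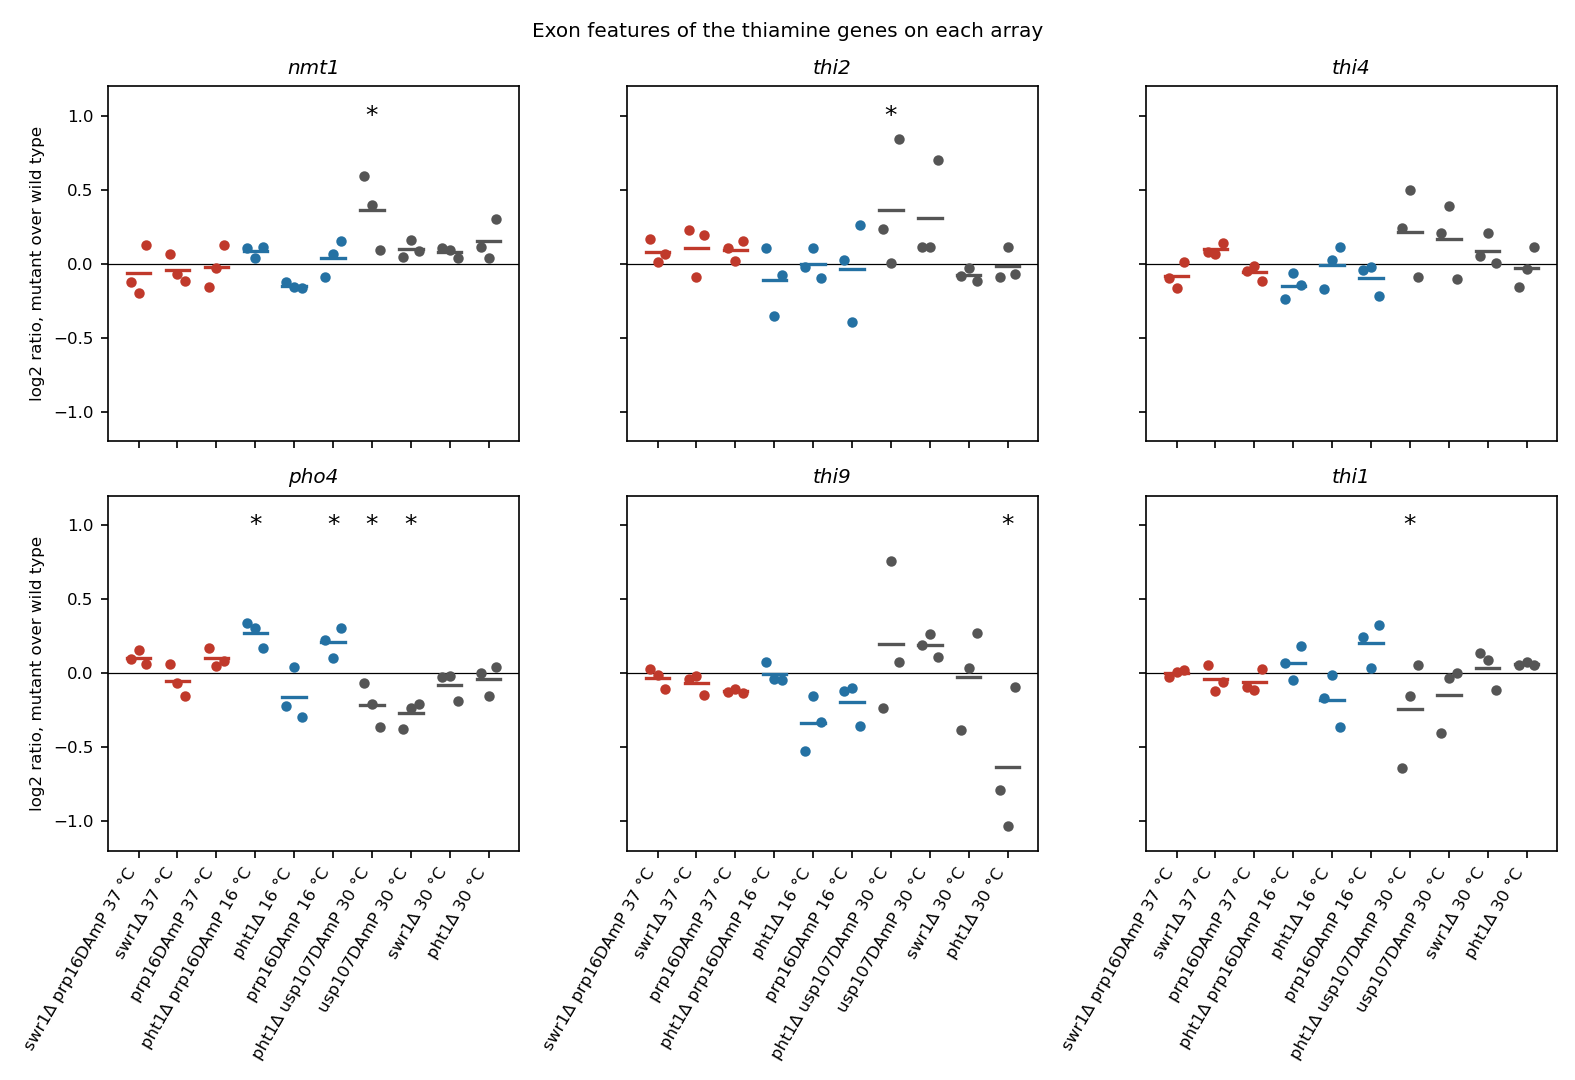
Log2 ratio of mutant over wild type (y axis) of each thiamine gene (panel) on each of the 3 arrays of the 10 groups (x axis; points are arrays, lines are group means, colours are temperatures of 37, 16 and 30 °C). An asterisk marks a mean called against wild type, of which there are 8, with the lowest mean at −0.64 for thi9 in pht1∆ at 30 °C.

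The other 5 groups had no call. The count was 0 of 6 in pht1∆ at 16 °C, against 20.3% of all exon features (2 of the 6 had an unadjusted limma p under 0.05, as did 31.5% of all features), and 0 of 6 in swr1∆ at 30 °C, against 5.56%. At 37 °C it was 0 of 6 in swr1∆ prp16DAmP, against 0.355%, 0 of 6 in swr1∆, against 1.05%, and 0 of 6 in prp16DAmP, against 0.118%. In swr1∆ at 30 °C and in the 3 groups at 37 °C, 0 thiamine genes had an unadjusted limma p under 0.05, which 5.48 to 20.8% of all features had in those groups. The gene thi4 was called in no group. The median log2 ratio of the 6 genes was 0.21 on the arrays labelled pht1∆ usp107DAmP, against −0.03 over all exon features, 0.13 in usp107DAmP, against −0.02, and −0.15 in pht1∆ at 16 °C, against −0.0049. In the other 7 groups it lay between −0.04 and 0.03. Nothing particular to the thiamine genes is read from these shares and medians.

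**Figure D2:**
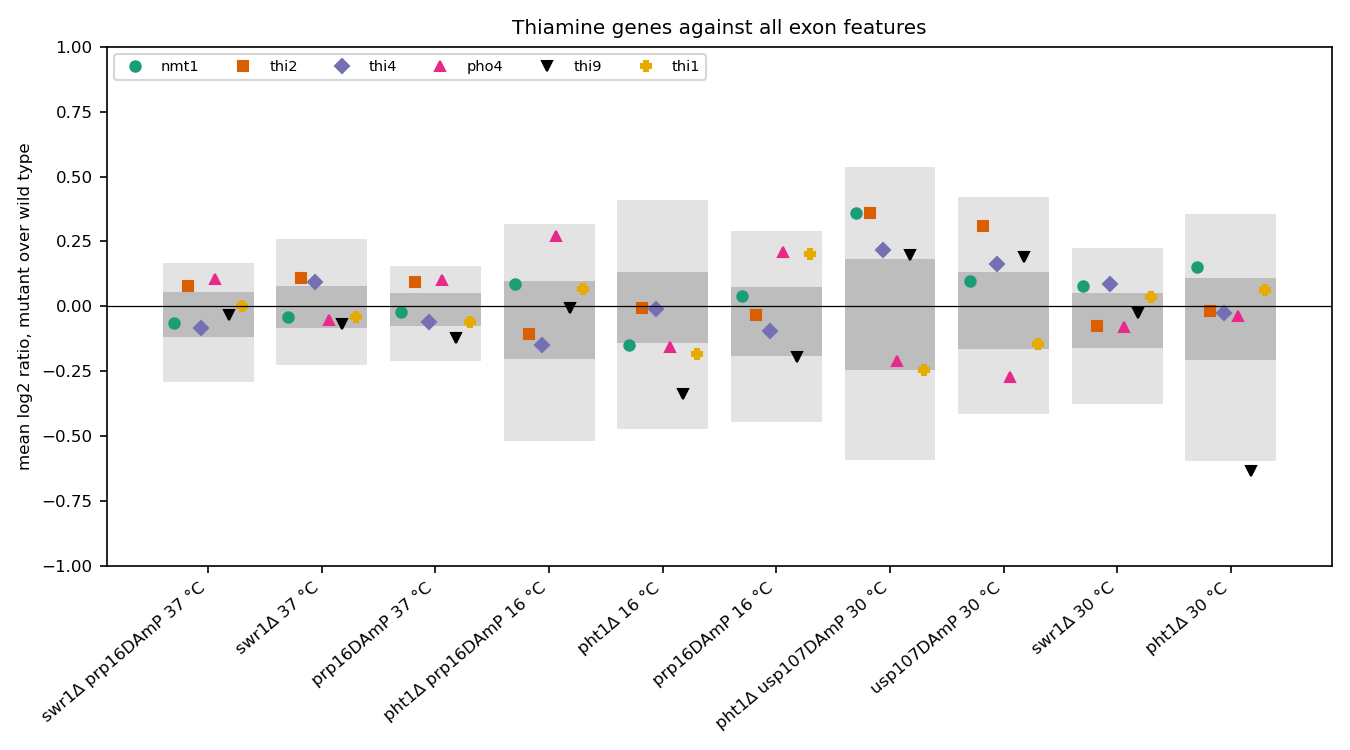
Mean log2 ratio of mutant over wild type (y axis) of the 6 thiamine genes (symbols) in each group of 3 arrays (x axis), over grey bars that span the middle 50% (dark) and 90% (light) of all 5069 exon features. The symbols lie mostly within the bars of all features, and thi9 in pht1∆ at 30 °C lies lowest, at −0.64.

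Nmt1, thi2 and thi4 encode the enzymes that make the vitamin itself, and Nmt1 makes the pyrimidine precursor. The nmt1 ratios were 0.59, 0.40 and 0.09 on the arrays labelled pht1∆ usp107DAmP, all above 0. Their mean was 0.36 ± 0.08 above wild type (1.28-fold, 95% interval 1.15 to 1.44, adjusted p = 0.000837, limma). The call was lost with arrays scaled to equal spread (mean 0.19, adjusted p = 0.118, limma) and with quantile normalization (mean 0.20, adjusted p = 0.106, limma). It was also lost in a fit on the arrays of this group alone (adjusted p = 0.187, limma). The highest ratio in any other group was 0.30, on 1 array of pht1∆ at 30 °C, and the other 2 arrays of that group gave 0.12 and 0.04 (mean 0.15, adjusted p = 0.167, limma). Arrays of usp107DAmP gave 0.04, 0.16 and 0.08, and those of swr1∆ at 30 °C 0.10, 0.09 and 0.04. So nmt1 was above 0 on all 12 arrays at 30 °C, although the mean was called in a single group. The 12 arrays are not independent readings, since a dye bias would be in each and same-numbered arrays of some of these groups deviated together. The share of all exon features above 0 on all 12 is not given here.

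At 16 °C nmt1 read 0.11, 0.04 and 0.11 on the arrays labelled pht1∆ prp16DAmP, −0.13, −0.15 and −0.17 in pht1∆, and −0.09, 0.06 and 0.15 in prp16DAmP. The arrays of pht1∆ all lay below 0 there, but the mean of −0.15 was not called (adjusted p = 0.199, limma). The difference of the double-mutant label from pht1∆ was 0.23 and was not called either (adjusted p = 0.131, limma), while 20.7% of all exon features were. At 37 °C it read −0.12, −0.20 and 0.12 in swr1∆ prp16DAmP, 0.06, −0.07 and −0.12 in swr1∆, and −0.16, −0.03 and 0.12 in prp16DAmP, with both signs in each group. All 10 of the 95% intervals of nmt1 lay within 1.5-fold of wild type in either direction. They rest on a spread pooled over all groups (SD 0.127), while the SD of nmt1 on the arrays labelled pht1∆ usp107DAmP was 0.253.

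Thi2 is the thiazole biosynthetic enzyme, which makes the other ring of the molecule. Its ratios were 0.23, 0.01 and 0.84 on the arrays labelled pht1∆ usp107DAmP, a mean of 0.36 ± 0.13 above wild type (1.28-fold, adjusted p = 0.0255, limma). Replicate 3 carried most of that mean, which was 0.12 without it (adjusted p = 0.482, limma). In usp107DAmP the ratios were 0.11, 0.11 and 0.70, with the high value again on replicate 3, and the mean of 0.31 was not called (adjusted p = 0.0834, limma). The other groups at 30 °C lay near 0, with −0.08, −0.03 and −0.12 in swr1∆ and −0.09, 0.11 and −0.07 in pht1∆.

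In the cold thi2 was spread widely, with 0.11, −0.35 and −0.08 on the arrays labelled pht1∆ prp16DAmP, −0.02, 0.10 and −0.10 in pht1∆, and 0.03, −0.39 and 0.26 in prp16DAmP. At 37 °C it gave 0.16, 0.01 and 0.06 in swr1∆ prp16DAmP, 0.22, −0.09 and 0.19 in swr1∆, and 0.11, 0.02 and 0.16 in prp16DAmP. No mean at 16 or 37 °C was called.

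Thi4 joins both rings, as a thiamine-phosphate diphosphorylase that also carries hydroxyethylthiazole kinase activity. Its ratios were 0.24, 0.50 and −0.09 on the arrays labelled pht1∆ usp107DAmP, with a mean of 0.22 ± 0.09 that just missed the threshold (adjusted p = 0.0550, limma; 0.0333 with arrays centred on the exon median). Those of usp107DAmP were 0.21, 0.39 and −0.11 (mean 0.16, adjusted p = 0.200, limma). Replicate 3 was the array below 0 in both groups, and without it the means were 0.37 (adjusted p = 0.00302, limma) for the double-mutant label and 0.30 (adjusted p = 0.0334, limma) for usp107DAmP. In the other 8 groups the means of thi4 lay between −0.15 and 0.10.

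Pho4 is the acid phosphatase of the cell surface that thiamine represses, and it frees thiamine from its phosphates outside the cell. Its ratios were 0.34, 0.31 and 0.17 on the arrays labelled pht1∆ prp16DAmP and 0.22, 0.10 and 0.31 in prp16DAmP at 16 °C, all above 0. The mean rose by 0.27 ± 0.07 over wild type on the arrays labelled pht1∆ prp16DAmP (1.21-fold, adjusted p = 0.00775, limma), and by 0.21 ± 0.07 in prp16DAmP (1.16-fold, adjusted p = 0.0431, limma). These calls are not independent, since same-numbered arrays of the groups deviated together over all exon features (correlation 0.179 to 0.394). The call in prp16DAmP rested on each array, since it was lost without any single one of the 3 (adjusted p 0.0533 to 0.224, limma), with equal spread of arrays (0.0782), on its 3 arrays alone (0.100) and with all features fitted together (0.0535), and that of the double-mutant label was lost without replicate 1 (adjusted p = 0.107, limma) or replicate 2 (adjusted p = 0.0634, limma). In pht1∆ at 16 °C the ratios were −0.22, 0.04 and −0.29 (mean −0.16, adjusted p = 0.122, limma), and without replicate 2 the mean was −0.26 and passed (adjusted p = 0.0305, limma).

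At 30 °C the pho4 ratios went the other way in the groups with a usp107DAmP label. They were −0.06, −0.21 and −0.37 on the arrays labelled pht1∆ usp107DAmP and −0.38, −0.23 and −0.21 in usp107DAmP, all below 0. The mean fell by 0.21 ± 0.07 for the double-mutant label (0.863-fold, adjusted p = 0.0189, limma) and by 0.27 ± 0.07 in usp107DAmP (0.828-fold, adjusted p = 0.00878, limma). These calls are not independent either, since same-numbered arrays of the groups deviated together (correlation 0.603 to 0.745). Without replicate 3 of the double-mutant label its adjusted p was 0.178 (0.0808 without replicate 2, limma), and without replicate 1 of usp107DAmP the adjusted p was 0.112 (limma; 0.202 in a fit on the 3 arrays alone). The ratios of pho4 were −0.03, −0.02 and −0.19 in swr1∆ at 30 °C and 0.00, −0.15 and 0.04 in pht1∆ at 30 °C. At 37 °C they were 0.09, 0.15 and 0.06 in swr1∆ prp16DAmP, 0.06, −0.07 and −0.15 in swr1∆, and 0.17, 0.05 and 0.08 in prp16DAmP, above 0 on all 6 arrays with a prp16DAmP label, with no mean called.

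Thi9 is the transporter of the plasma membrane that brings thiamine into the cell together with protons. Its ratios were −0.79, −1.03 and −0.09 in pht1∆ at 30 °C, and the mean fell by 0.64 ± 0.14 (0.644-fold of wild type, 95% interval 0.525 to 0.788, adjusted p = 0.00179, limma). The arrays differed among themselves by almost as much as the mean lay from 0, with an SD of 0.487, and without replicate 2 the mean was −0.44 (adjusted p = 0.0621, limma). Fitted on the 3 arrays of the group alone, the adjusted p was 0.108 (limma). In size this mean stood at percentile 94.5 of all exon features in that group.

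The other thi9 values were not called. In pht1∆ at 16 °C the ratios were −0.53, −0.15 and −0.33, all below 0 (mean −0.34, adjusted p = 0.0990, limma), which passed with quantile normalization (adjusted p = 0.0302, limma) and on its own arrays (adjusted p = 0.0282, limma). In prp16DAmP at 16 °C they were −0.12, −0.10 and −0.36. The arrays labelled pht1∆ prp16DAmP gave 0.08, −0.04 and −0.05. At 30 °C the arrays labelled pht1∆ usp107DAmP gave −0.24, 0.76 and 0.08, those of usp107DAmP 0.19, 0.27 and 0.11, and those of swr1∆ −0.38, 0.04 and 0.27. At 37 °C all 9 ratios lay between −0.15 and 0.03. Thi9 was the most variable of the 6 genes between replicates, with a pooled SD of 0.261, against a median of 0.178 over all exon features.

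Thi1 is the transcription factor that activates the thiamine genes. Its ratios were −0.64, −0.15 and 0.06 on the arrays labelled pht1∆ usp107DAmP, and the mean fell by 0.24 ± 0.10 (0.844-fold of wild type, adjusted p = 0.0432, limma). Replicate 1 carried this call, since without it the mean was −0.05 (adjusted p = 0.744, limma), and it was also lost without replicate 2 (adjusted p = 0.0800, limma), with centred arrays (0.0762) and with all features fitted together (0.0546). In usp107DAmP replicate 1 was again the low array, with −0.41, −0.03 and 0.00 (mean −0.15, adjusted p = 0.296, limma). The same group thus held a lower mean ratio of the activator's own gene beside higher mean ratios of nmt1 and thi2. All 4 calls in this group were lost when the arrays were scaled to equal spread (adjusted p 0.118 to 0.357, limma), with quantile normalization (0.106 to 0.295) and with the 3 arrays of the group fitted alone (0.187 to 0.388).

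At 16 °C thi1 gave 0.07, −0.05 and 0.18 on the arrays labelled pht1∆ prp16DAmP, −0.17, −0.02 and −0.37 in pht1∆, and 0.25, 0.03 and 0.32 in prp16DAmP (mean 0.20, adjusted p = 0.153, limma). At 37 °C all 9 ratios lay between −0.12 and 0.06. In swr1∆ at 30 °C they were 0.13, 0.09 and −0.11, and in pht1∆ 0.06, 0.08 and 0.05.

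Same-numbered arrays of the groups labelled pht1∆ usp107DAmP and usp107DAmP deviated together over all exon features, with a correlation of their deviations from the group means of 0.603 to 0.745 for the 3 numbers. Of the thiamine genes, thi2, thi4 and thi1 had both their highest and their lowest array on the same numbers in these groups. For those genes the difference between same-numbered arrays (pht1∆ usp107DAmP minus usp107DAmP) spanned less than the ratios of either group, at 0.12, −0.11 and 0.14 for thi2 on replicates 1, 2 and 3. For nmt1 it was 0.55, 0.24 and 0.01, above 0 on all 3.

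**Figure D3:**
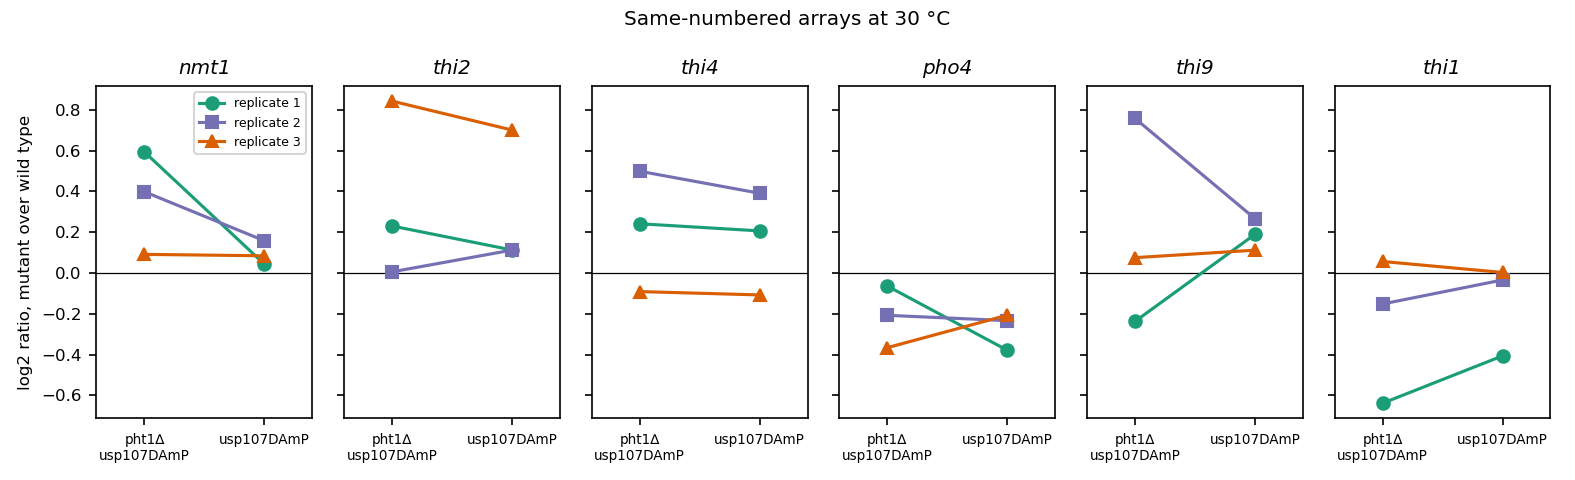
Log2 ratio of mutant over wild type (y axis) of each thiamine gene (panel) on the arrays labelled pht1∆ usp107DAmP (left) and usp107DAmP (right) at 30 °C, with lines joining arrays of the same replicate number. Replicate 3 is highest for thi2 and lowest for thi4 in both groups, and replicate 1 is lowest for thi1 in both.

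Between mutant groups a constant dye bias cancels, and 2 of the 78 differences (6 genes in 13 comparisons) were called. Pho4 was higher on the arrays labelled pht1∆ prp16DAmP than in pht1∆ at 16 °C by 0.43 ± 0.10 (1.35-fold, 95% interval 1.17 to 1.55, adjusted p = 0.00522, limma). The ratios were 0.34, 0.31 and 0.17 in the first and −0.22, 0.04 and −0.29 in pht1∆. The pho4 difference was the 1 call among 6 genes, against 20.7% of all exon features (8.21% higher), and it held without any single array of these groups (adjusted p 0.00243 to 0.0338, limma). The pht1 feature, lower in pht1∆ and near wild type on the double-mutant arrays, differed between these groups too.

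Thi9 was higher on the arrays labelled pht1∆ usp107DAmP than in pht1∆ at 30 °C by 0.83 ± 0.20 (1.78-fold, 95% interval 1.34 to 2.38, adjusted p = 0.00385, limma). The ratios were −0.24, 0.76 and 0.08 for the double-mutant label and −0.79, −1.03 and −0.09 in pht1∆, so that replicate 3 of pht1∆ overlapped the first group. This too was 1 of 6, against 29.7% (15.4% higher), and it held without any single array of these groups (adjusted p 0.000368 to 0.0455, limma), but not in a fit on the 6 arrays of the groups alone (adjusted p = 0.166, limma). The pht1 feature, lower in pht1∆ and near wild type on the double-mutant arrays, differed between these groups too, by 0.67 (adjusted p = 0.00123, limma). The other thiamine genes did not pass in that comparison, with thi2 at 0.38, thi4 at 0.24, nmt1 at 0.21, pho4 at −0.18 and thi1 at −0.31 (adjusted p 0.0880 to 0.189, limma). Without replicate 3 of the double-mutant label 3 of these passed: nmt1 at 0.35 (adjusted p = 0.0145), thi4 at 0.40 (adjusted p = 0.0151) and thi1 at −0.46 (adjusted p = 0.0114), all from limma. Without its replicate 2, thi2 passed at 0.55 (adjusted p = 0.0443, limma).

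Swr1 places the histone variant that pht1 encodes, and at 30 °C the difference in thi9 between swr1∆ and pht1∆ was 0.61 ± 0.20, which did not pass (adjusted p = 0.112, limma; 95% interval 1.15 to 2.03-fold). Same-numbered arrays of these groups deviated together (correlation 0.532 to 0.785), and with the replicate number as a block the adjusted p was 0.0310 (limma). The count was 0 of 6, against 2.37% of all exon features (1 of 6 at an unadjusted limma p under 0.05, against 14.6%). Without replicate 3 of pht1∆ the difference was 0.88 (adjusted p = 0.0125, limma), and without replicate 1 of swr1∆ it was 0.79 (adjusted p = 0.0399, limma).

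No thiamine gene passed when the arrays labelled pht1∆ usp107DAmP were set against usp107DAmP (0 of 6, against 0.829%). The widest difference there was nmt1 at 0.27 (adjusted p = 0.288, limma; 0.40 with adjusted p = 0.0209 without replicate 3 of the double-mutant label). The intervals of the other 5 genes ran from 0.76 to 1.34-fold at their widest, for thi9, so differences of that size could not be told from none. The count was also 0 of 6 for pht1∆ prp16DAmP minus prp16DAmP at 16 °C, against 0.158%. At 37 °C it was 0 of 6 for swr1∆ prp16DAmP minus swr1∆, against 2.76%, and 0 of 6 for swr1∆ prp16DAmP minus prp16DAmP, against 0.0197%.

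Temperature within a genotype and the interaction terms gave no calls either. For pht1∆ at 16 °C minus 30 °C the count was 0 of 6, against 7.93%, with nmt1 at −0.30 (adjusted p = 0.0986, limma) as the nearest. For swr1∆ at 37 °C minus 30 °C it was 0 of 6, against 1.46%, and for prp16DAmP at 37 °C minus 16 °C 0 of 6, against 2.07%. The interaction term subtracts both single-mutant groups from the arrays with the double-mutant label. It was called for 0 of 6 at 37 °C, against 0.335%, at 16 °C, against 2.56%, and at 30 °C, against 1.03%. Its terms go by the labels, whose pht1∆ part the pht1 feature did not bear out at 16 and 30 °C, while swr1 read −0.11 on the arrays labelled swr1∆ prp16DAmP at 37 °C and was not called. For thi9 at 30 °C it was 0.65 ± 0.25 (adjusted p = 0.222, limma), and 0.92 (adjusted p = 0.0326, limma) without replicate 3 of pht1∆. Of the comparisons between mutant groups with no call, the unadjusted limma p was under 0.05 for at most 1 thiamine gene each.

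The order of the 10 group means differed between the genes. For nmt1, thi2 and thi4 the highest mean was that of the arrays labelled pht1∆ usp107DAmP, and for thi1 this group was the lowest. For pho4 the order ran from usp107DAmP (−0.27) at the low end to pht1∆ prp16DAmP (0.27) at the high end, and for thi9 from pht1∆ at 30 °C (−0.64) to pht1∆ usp107DAmP (0.20). Neighbours in these orders overlapped in their arrays, except in 2 places: pho4 between pht1∆ at 30 °C (−0.04) and prp16DAmP at 37 °C (0.10), and thi9 between the arrays labelled pht1∆ prp16DAmP (−0.01) and usp107DAmP (0.19). The share of all exon features with such gaps is not given here, so nothing is read from these places.

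Across the 30 arrays, which share groups and the spread of each array, the 6 genes did not follow one pattern. Pearson's r between pairs ran from −0.509 (thi4 and pho4) to 0.511 (pho4 and thi1), with 0.467 for thi4 and thi9, 0.420 for nmt1 and thi4, and 0.108 for the pyrimidine and thiazole genes nmt1 and thi2. Ranked among 5068 other exon features by r with pho4, thi1 came 213th, and no other pair ranked as near. The features most like each gene over the arrays were isp3 (r = 0.777), rga8 and SPAC27E2.13 for nmt1, rpc25 (0.780), mug42 and cog8 for thi2, and cym1 (0.844), man1 and rpt3 for thi4. For pho4 they were bpl1 (0.807), rhp18 and set2, for thi9 SPBC1348.13 (0.843), cho2 and SPAC1399.01c, and for thi1 alg6 (0.839), asf1 and cwf4. None of the 6 thiamine genes was among the 3 nearest features of another.

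Other genes that supply thiamine or control its supply were read from a list of 9, taken from product names and from known regulators. The list also holds the vitamin B6 genes bsu1 and snz1, which were added by name and stay in every count and median. On the arrays labelled pht1∆ usp107DAmP 2 of 9 were higher and 3 lower, against 18.0% higher and 24.4% lower of all exon features. In pht1∆ at 16 °C 0 of 9 were higher and 4 lower, so 4 of 9 were called in either direction, against 20.3% of all features. In prp16DAmP at 16 °C 1 was higher and 1 lower, against 17.3% called in either direction. In usp107DAmP 2 of 9 were lower, as were 11.9% of all features, and in pht1∆ at 30 °C 1 of 9 was lower, as were 16.9%. On the arrays labelled pht1∆ prp16DAmP and in swr1∆ at 30 °C 1 of 9 was lower and 0 higher. There 23.4% and 5.56% of all features were called in either direction. None of the 9 passed at 37 °C, where 0.118 to 1.05% of all features did. The median log2 ratio of the list was −0.12 on the arrays labelled pht1∆ usp107DAmP, against −0.03 over all exon features, and −0.10 in pht1∆ at 16 °C, against −0.0049.

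The gene thi201, for a phosphomethylpyrimidine kinase that phosphorylates the pyrimidine ring's precursor, had wider changes than any of the 6 thiamine genes. It read −1.14, −0.84 and −0.76 in pht1∆ at 16 °C, −1.39, −2.42 and −0.48 on the arrays labelled pht1∆ usp107DAmP, −0.46, −0.73 and −0.62 in usp107DAmP, and −1.14, −0.90 and −0.92 in pht1∆ at 30 °C. All 12 arrays lay below 0, and the means fell by 0.91 ± 0.18 (adjusted p = 0.000786), 1.43 ± 0.18 (adjusted p = 4.29e-06), 0.60 ± 0.18 (adjusted p = 0.0227) and 0.99 ± 0.18 (adjusted p = 0.00032) in that order, all from limma. The calls in pht1∆ held under every alternative and without any single array, that on the arrays labelled pht1∆ usp107DAmP was lost on its own arrays alone (adjusted p = 0.0717, limma), and that in usp107DAmP was lost without any one of its 3 (highest adjusted p = 0.167, limma). On the arrays labelled pht1∆ prp16DAmP thi201 was −0.30, in prp16DAmP at 16 °C −0.37 and in swr1∆ at 30 °C −0.16, none called. Its neighbour thi20, for a kinase of the same kind, was instead higher in prp16DAmP at 16 °C (0.31 ± 0.08, adjusted p = 0.0133, limma) and on the arrays labelled pht1∆ usp107DAmP (0.26 ± 0.08, adjusted p = 0.0149, limma). Probe sequences were not used here, so whether the probes of these similar genes tell them apart was not tested.

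Tnr3, which converts thiamine to its active diphosphate, was lower in all 3 groups at 16 °C, by 0.42 on the arrays labelled pht1∆ prp16DAmP (adjusted p = 0.0231), 0.45 in pht1∆ (adjusted p = 0.0178) and 0.43 in prp16DAmP (adjusted p = 0.0276), all from limma. In that order 23.4%, 20.3% and 17.3% of all exon features were called in either direction. Low ratios were not confined to the cold. All arrays of prp16DAmP at 37 °C (−0.36, −0.30 and −0.43), pht1∆ at 30 °C (−0.11, −0.28 and −0.50), usp107DAmP and swr1∆ at 37 °C lay below 0, with no mean called. Both signs occurred in swr1∆ at 30 °C and in swr1∆ prp16DAmP. On the arrays labelled pht1∆ usp107DAmP it read −0.66, −1.06 and −0.20, and the mean fell by 0.64 ± 0.13 (adjusted p = 0.000548, limma). The 16 °C calls were lost when single arrays were left out, with adjusted p up to 0.282, 0.135 and 0.287 in the same order (limma), while that of the double-mutant label at 30 °C held without any single array but not with equal spread of arrays or on its own arrays (highest adjusted p = 0.0965, limma). The calls in prp16DAmP and the double-mutant label at 16 °C were also lost with quantile normalization and with centring. Same-numbered arrays of these 16 °C groups deviated together, so their calls are not independent. Thi5, the partner of Thi1, fell by 0.38 ± 0.09 in usp107DAmP (adjusted p = 0.00327, limma) and by 0.23 ± 0.09 on the arrays labelled pht1∆ usp107DAmP (adjusted p = 0.0365, limma), where thi1 was also lower.

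The remaining calls of this list were those of SPCC18B5.05c, SPBC1604.04 and SPCC794.03. SPCC18B5.05c, annotated as a phosphomethylpyrimidine kinase, fell by 0.45 and SPBC1604.04, annotated as a carrier of thiamine diphosphate, by 0.21 in pht1∆ at 16 °C (adjusted p = 0.00858 and 0.0472, limma). SPBC1604.04 also fell by 0.24 in swr1∆ at 30 °C (adjusted p = 0.0492, limma), and the annotated thiamine transporter SPCC794.03 rose by 0.23 on the arrays labelled pht1∆ usp107DAmP (adjusted p = 0.0302, limma). Of these and the calls of thi20 and thi5, each was lost without at least 1 single array of its group. The vitamin B6 importer gene bsu1 and the pyridoxal phosphate synthase gene snz1 were called in no group.

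Of 9 genes for enzymes that use thiamine diphosphate, 3 were higher and 0 lower on the arrays labelled pht1∆ usp107DAmP, against 18.0% higher and 24.4% lower of all exon features. In pht1∆ at 30 °C 2 of 9 were higher and 0 lower, so 2 of 9 were called in either direction, against 25.7% of all features. The pyruvate decarboxylase gene pdc201 read 0.67, 1.72 and 0.39 on the arrays labelled pht1∆ usp107DAmP (mean 0.93 ± 0.19, 1.90-fold, adjusted p = 0.000548, limma) and 1.02, 0.28 and 0.47 in pht1∆ at 30 °C (mean 0.59 ± 0.19, adjusted p = 0.0247, limma). Its call in the first group was lost without replicate 2 (adjusted p = 0.0512, limma), and that in pht1∆ without replicate 1 or 3 (adjusted p up to 0.286, limma). Both were also lost with equal spread, with quantile normalization and on their own arrays (adjusted p up to 0.0914 and 0.110, limma). Another decarboxylase gene, pdc202, rose by 0.27 ± 0.08 in each of these groups (adjusted p = 0.00932 and 0.0145, limma), and kgd1, of the oxoglutarate dehydrogenase, by 0.22 on the arrays labelled pht1∆ usp107DAmP (adjusted p = 0.0448, limma). At 16 °C 1 of 9 was lower and 0 higher in each group, where 17.3 to 23.4% of all features were called in either direction. The transketolase gene tkt1 was lower by 0.26 on the arrays labelled pht1∆ prp16DAmP (adjusted p = 0.0431, limma). The gene pdb1 of pyruvate dehydrogenase was lower by 0.25 in pht1∆ (adjusted p = 0.0428, limma). The acetolactate synthase gene ilv1 was lower by 0.36 in prp16DAmP (adjusted p = 0.0359, limma). The calls of pdc202, kgd1, tkt1, pdb1 and ilv1 were each lost without at least 1 single array. Those of pdc202 were also lost with equal spread, with quantile normalization and on their own arrays. The other decarboxylase genes, pdc101 and pdc102, and pda1 of pyruvate dehydrogenase were called in no group, and none of the 9 in usp107DAmP, swr1∆ or the 37 °C groups.

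**Figure D4:**
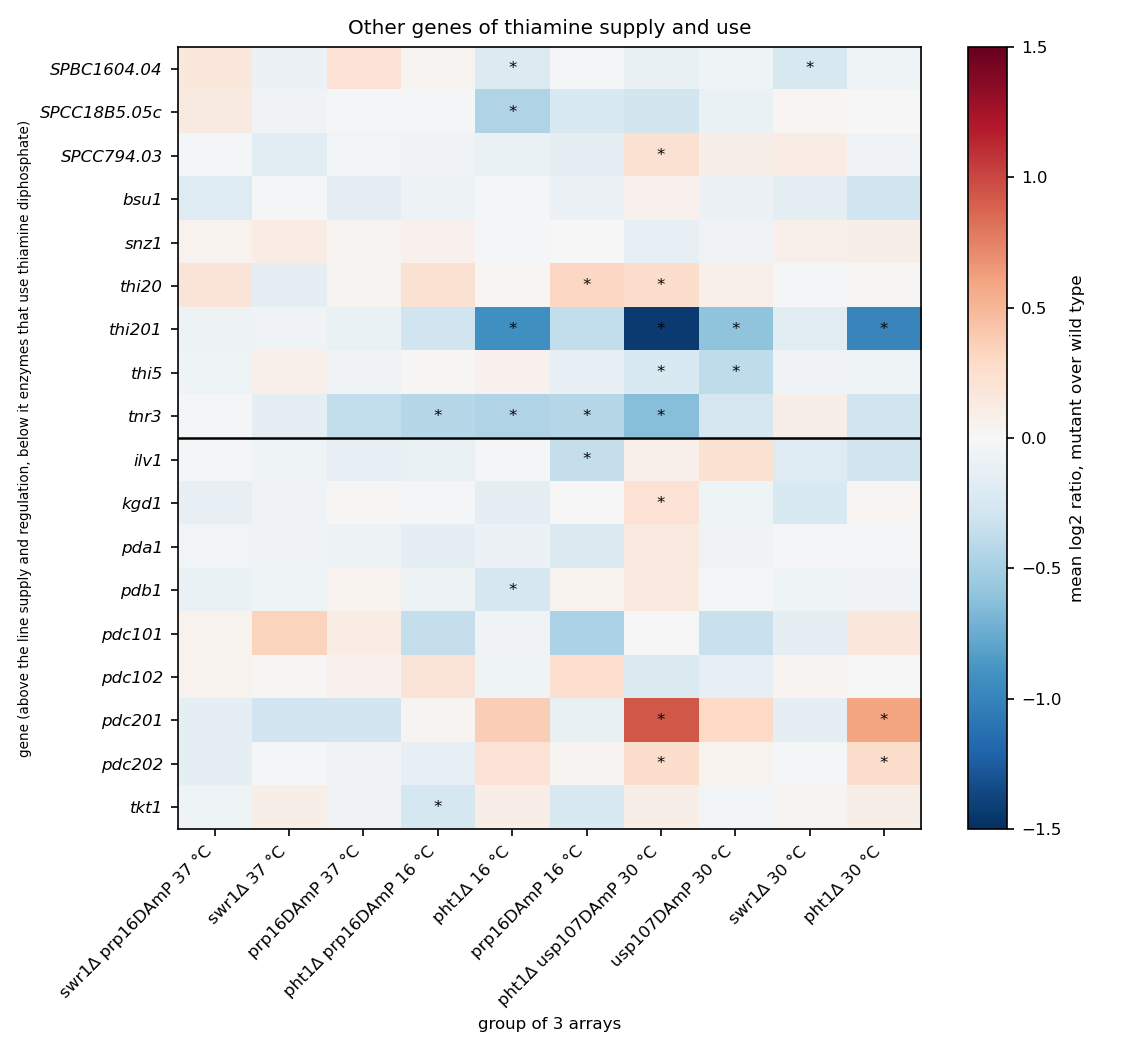
Mean log2 ratio of mutant over wild type (colour) of 18 other genes, in rows, for the 10 groups of 3 arrays in columns. Above the line are genes of thiamine supply and regulation, with bsu1 and snz1 of vitamin B6 among them. Below the line are enzymes that use thiamine diphosphate. Asterisks mark means called against wild type, and the deepest blue cell is thi201 on the arrays labelled pht1∆ usp107DAmP, at −1.43.

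Of the genes next to the thiamine genes, 4 are described here, picked after their values were seen. Of the others, tda1 was called in 4 groups, and nob1, tea3 and cnl2 in 2 each. The neighbours sec9, eca39, met26 and SPAC9.11 were called in 1 each. The gene gut2, for a mitochondrial glycerol-3-phosphate dehydrogenase, lies downstream of nmt1 on the opposite strand. It was higher by 0.58 in pht1∆ at 16 °C, 1.05 in usp107DAmP, 0.69 in swr1∆ at 30 °C and 1.05 in pht1∆ at 30 °C (adjusted p = 0.0232, 0.000423, 0.0245 and 0.000138, limma), groups in which nmt1 was not called. In that order 20.3%, 20.5%, 5.56% and 25.7% of all exon features were called in either direction. The calls of gut2 in usp107DAmP and in pht1∆ at 30 °C held without any single array of the group, and the other 2 did not (highest adjusted p = 0.166 and 0.229, limma). On its own arrays the call in usp107DAmP was lost (adjusted p = 0.0634, limma), while that in pht1∆ at 30 °C passed under every alternative run. On the other side of nmt1, the ubiquitin ligase gene hel2 was lower by 0.60 on the arrays labelled pht1∆ usp107DAmP (adjusted p = 1.68e-05, limma), where nmt1 was higher, a call lost on its own arrays (adjusted p = 0.0821, limma). There 24.4% of all features were called lower. The gene cdb4, downstream of thi4, was lower in 5 groups, down to −0.90, while thi4 was called in none. In those groups 0.355 to 42.4% of all features were called in either direction. The gene apq12, whose start lies beyond that of pho4 on the opposite strand, was lower in 3 groups, down to −0.79 in pht1∆ at 30 °C, where pho4 read −0.04. In those 3 groups 20.3 to 42.4% of all features were called in either direction. Over the 30 arrays the r of a thiamine gene with either annotated neighbour lay between −0.38 and 0.40 for all 12 pairs.

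Of the 60 intervals against wild type, 57 lay within 1.5-fold of wild type on both sides. These were all 10 of nmt1, thi4, pho4 and thi1, 9 of thi2 and 8 of thi9. They rest on a spread per gene pooled over all 10 groups, although array spread differed between groups. On the arrays labelled pht1∆ usp107DAmP the SD was 0.253 for nmt1, 0.433 for thi2 and 0.357 for thi1, against pooled SDs of 0.127, 0.231 and 0.166. The SD of thi9 in pht1∆ at 30 °C was 0.487, against a pooled SD of 0.261. In usp107DAmP it was 0.340 for thi2 and 0.252 for thi4, against 0.231 and 0.153. For these groups the intervals are narrower than their own arrays allow, so the count sets no bound there. The pht1 feature read 0.598-fold in pht1∆ at 16 °C and 0.636-fold at 30 °C, so how far a fold here measures a change in transcript is not known. The deposited values are ratios, so the level of a gene and its signal over background could not be given, and for genes that medium with thiamine represses it is not known how far above background the signal lay.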

How the data were processed

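RNA of 10 mutant groups was set against wild-type RNA on 30 two-colour Agilent splicing arrays. The deposited table gives 1 log ratio per feature and array, 5069 exon, 4836 intron and 4651 junction features. The medians of the exon features lay within 0.0778 of 0 on every array. The deposited value was read as log2 of mutant (Cy5) over wild type (Cy3), with the direction taken from the dyes per the labels. The base of the logarithm, scanner software, background correction, normalization method and array build remain unknown (not given in the sources used here). Were the base e, each log2 value would be larger by a constant factor and each fold wider, and the limma p-values would not change. The number of arrays limits the precision.

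From these values, the functions lmFit and eBayes of limma 3.58.1 (R 4.3.3) fitted 1 mean per group over all 30 arrays, with 20 residual degrees of freedom, for 10 comparisons with wild type and 13 between groups, two-sided, with Benjamini-Hochberg adjustment over all exon features and a threshold of 0.05. The fit was tested on simulated data. Comparisons share arrays: each single mutant enters several of them.

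The members and lists were chosen with earlier results of these data known. All 6 members are named in all groups. Other genes are named by rule: thiamine genes called, the 3 features with the highest r to each member, and annotated neighbours (of which 4 were picked after their values were seen). Symbols came from RefSeq ASM294v3, in which 4862 array gene names matched by locus tag, 201 by synonym and 76 not at all. The promoter table named in the plan was replaced by the RefSeq genome itself, read at its own coordinates.

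Replicate numbers come from the titles. Same-numbered arrays were taken as paired where every correlation of their deviations from the group means was over 0.1, which held for pht1∆ usp107DAmP with usp107DAmP (0.603 to 0.745), swr1∆ with pht1∆ at 30 °C (0.532 to 0.785) and pht1∆ prp16DAmP with prp16DAmP at 16 °C (0.179 to 0.394). Alternatives were equal spread of arrays, quantile normalization, centring on the exon median, a fit on the compared groups alone, a fit on all features, robust empirical Bayes, the replicate block and leaving out each array of the groups compared. Leaving out arrays of the other groups was added after the data were seen. Drawings used Python 3.11.15 and matplotlib 3.10.9.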

Additional observations from a re-analysis of the deposited data

How the results depend on the processing

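Of 906 values of the 6 genes under alternatives that kept all arrays of the compared groups, 882 stayed on the same side of the threshold, as did 679 of 702 with 1 array of those groups left out. None that was called turned its direction, and 3 of the 10 called values passed in every fit with an array left out: nmt1 on the arrays labelled pht1∆ usp107DAmP, pho4 in pht1∆ prp16DAmP minus pht1∆ and thi9 in pht1∆ usp107DAmP minus pht1∆. Signs of values that were not called turned 13 times with equal spread, 11 times with quantile normalization and 12 times with centring. Leaving out 1 array of a group outside the comparison, which was added after the data were seen, changed 13 of 3438 values. Pho4 in prp16DAmP at 16 °C was lost without any one of 7 such arrays (adjusted p 0.0503 to 0.0522). The 6 gained were thi9 in pht1∆ at 16 °C (adjusted p = 0.0466) and in swr1∆ minus pht1∆ (0.0490) without replicate 2 of pht1∆ usp107DAmP, thi2 in usp107DAmP (0.0387) and nmt1 in pht1∆ at 16 °C minus 30 °C (0.0493) without its replicate 3, and thi4 on the arrays labelled pht1∆ usp107DAmP without replicate 2 (0.0439) or 3 (0.0376) of usp107DAmP.

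The number of thiamine genes called on the arrays labelled pht1∆ usp107DAmP (4) was 0 with equal spread, quantile normalization or only its own arrays, and 2 to 3 with an array left out. In pht1∆ at 16 °C (0) it was 1 with quantile normalization and with its own arrays, and 0 to 1 with an array left out. In prp16DAmP at 16 °C (1) it was 0 with equal spread, its own arrays, all features together, or any array left out. With only the arrays compared it was 0 in usp107DAmP (1; 0 to 2 with an array left out), in pht1∆ at 30 °C (1; 0 to 1) and in pht1∆ usp107DAmP minus pht1∆ (1; 1 to 4). It was 0 to 1 with an array left out in pht1∆ prp16DAmP (1), and, from a count of 0, in pht1∆ usp107DAmP minus usp107DAmP, swr1∆ minus pht1∆ at 30 °C and the 30 °C interaction. With the replicate block, swr1∆ minus pht1∆ had 1 call (thi9) in place of 0, and no other call of the 6 genes changed.

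The number of all exon features called moved more. Against wild type it was 2151 on the arrays labelled pht1∆ usp107DAmP (563 with equal spread, 746 with quantile normalization, 29 with its own arrays, 1111 to 2513 with an array left out) and 1040 in usp107DAmP (571, 642, 65 and 293 to 1261 in that order). It was 1305 in pht1∆ at 30 °C (253 with its own arrays, 856 to 1034 with an array left out), 282 in swr1∆ at 30 °C (2 and 53 to 597), 1187 on the arrays labelled pht1∆ prp16DAmP (309 to 926 with an array left out), 1027 in pht1∆ at 16 °C (539 to 772) and 876 in prp16DAmP at 16 °C (186 to 612). At 37 °C equal spread gave 437 in place of 18 for swr1∆ prp16DAmP, 654 in place of 53 for swr1∆ and 776 in place of 6 for prp16DAmP. In pht1∆ usp107DAmP minus pht1∆ it was 1507 (388 with equal spread, 5 with only the arrays compared), and the replicate block gave 209 in place of 42 in pht1∆ usp107DAmP minus usp107DAmP and 264 in place of 120 in swr1∆ minus pht1∆. The causes were not tested. Of 53 called values of the other thiamine genes and of the neighbours, 9 passed under every alternative and every left-out array, in fits added after the data were seen. Signal over background was not available, so what it limits was not examined.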
